A study of Mus musculus with 19 samples.

Results

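The genes described here carry excitation-contraction coupling and calcium handling in skeletal muscle. They are the voltage sensor of the membrane, the calcium release channels, the proteins that hold the triad together, the calcium store with its buffers and pumps, store-operated calcium entry and the channels that set membrane excitability. The 32 genes were taken from a named list of triad, store and channel genes, and they are 32 of the 35675 genes to which the deposited transcripts were assigned. All 32 passed the filter on low counts, as did 15129 genes in all.

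An action potential enters the muscle fibre along the T-tubules, where Cav1.1 senses the voltage and opens the ryanodine receptor of the facing sarcoplasmic reticulum. Calcium bound to calsequestrin in the store is released into the cytosol, starts contraction, and is pumped back by the SERCA pumps. In development this apparatus is built while myoblasts leave the cell cycle, fuse and become myotubes.

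The RNA came from primary myoblasts of mouse hind-limb muscle, grown in culture under a wild-type (WT) or a Glud1-deficient genotype label, written here as KO-labelled. Glud1 encodes mitochondrial glutamate dehydrogenase. Libraries were made at 24 h (proliferating myoblasts in growth medium; 3 WT and 3 KO-labelled), at 48 h (differentiated myotubes; 3 and 2) and at 72 h (fused myotubes; 4 and 4), 19 in all. Neither how Glud1 was made deficient nor the allele, strain, sex or age of the mice is given in the sources used here, and the labels call the replicates biological without naming animals or cultures, so p-values measure the spread between these libraries.

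Libraries held 16168131 to 30742634 estimated counts. Levels are given as CPM, counts relative to a library size adjusted by TMM factors, for comparisons of 1 gene between libraries, and as TPM, which also allows for transcript length, where genes are compared with each other. Summed counts of Glud1, the targeted gene, overlapped between labels at each stage. WT myoblasts held 192, 191 and 184 CPM and KO-labelled myoblasts 190, 185 and 186 CPM, with exact two-sided permutation p-values of 0.5, 0.4 and 0.457 at the 3 stages, where the smallest possible were 0.1, 0.1 and 0.0286. The split of Glud1 counts between its transcripts did differ: a 699-base transcript took 7.98% to 13.2% of them in WT libraries and 4.72% to 7.34% in KO-labelled ones, and the labels did not overlap. This share was looked at after the values were seen and carries no test. In TPM, Glud1 averaged 169 ± 6.1, 83.8 ± 3.73 and 102 ± 2.25 at the 3 stages in WT (SD). KO-labelled libraries averaged 139 ± 3.21, 61.7 ± 3.96 and 79.4 ± 2.82. The log2 label difference in edgeR's quasi-likelihood test was -0.02, -0.09 and -0.02 (adjusted p = 0.851, 0.195 and 0.75). Over the alternatives (edgeR or DESeq2) it reached -0.26, -0.31 and -0.34, with lowest adjusted p of 0.000708, 0.000244 and 1.58e-05. At least 1 alternative at each stage thus called Glud1 lower in KO-labelled libraries.

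The labelled cell type was checked against marker lists. The 4 myotube markers Myog, Myh3, Acta1 and Ckm summed to 707 to 832 CPM in WT myoblasts and to 29134 to 33971 CPM in WT differentiated myotubes. The 4 myoblast markers Pax7, Myf5, Myod1 and Des, mostly Des, also rose. They summed to 1548 to 1681, 3664 to 3960 and 5458 to 6057 CPM at the 3 WT stages. Among them Pax7 averaged 102, 10.6 and 3.61 CPM, Myf5 83.2, 63.2 and 125 CPM, and Myod1 691, 814 and 298 CPM. The endothelial, Schwann cell, fibroblast, adipocyte and cardiac lists summed to under 5 CPM in every library. The immune list reached 15.5 to 28 CPM at 48 h, and the smooth muscle list ran from 457 to 2854 CPM over all libraries. In bulk RNA, fewer cells of a type and less RNA per cell cannot be told apart.

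Over differentiation of WT cells, 29 of the 32 genes rose and 3 fell from myoblasts to differentiated myotubes in edgeR's quasi-likelihood test at a Benjamini-Hochberg adjusted p under 0.05. Of all genes tested, 42.4% rose, 42.6% fell and 85% were called in either direction. With so many genes called, the members are described by direction and size. The median log2 change was 3.53 for the 32 genes and 0.02 for all genes tested. From differentiated to fused myotubes 24 rose and 6 fell, where 37.3% of all genes rose, 37.7% fell and 75.1% were called, with medians of 0.58 and -0.01. From myoblasts to fused myotubes the same counts of 29 higher and 3 lower were found, against 42.2% and 43.4% of all genes and 85.5% called, and the median was 4.26 against -0.01. Scaling by library size alone moved the median of all genes to -0.231 and -0.333 in the 2 comparisons with myoblasts.

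**Figure D1:**
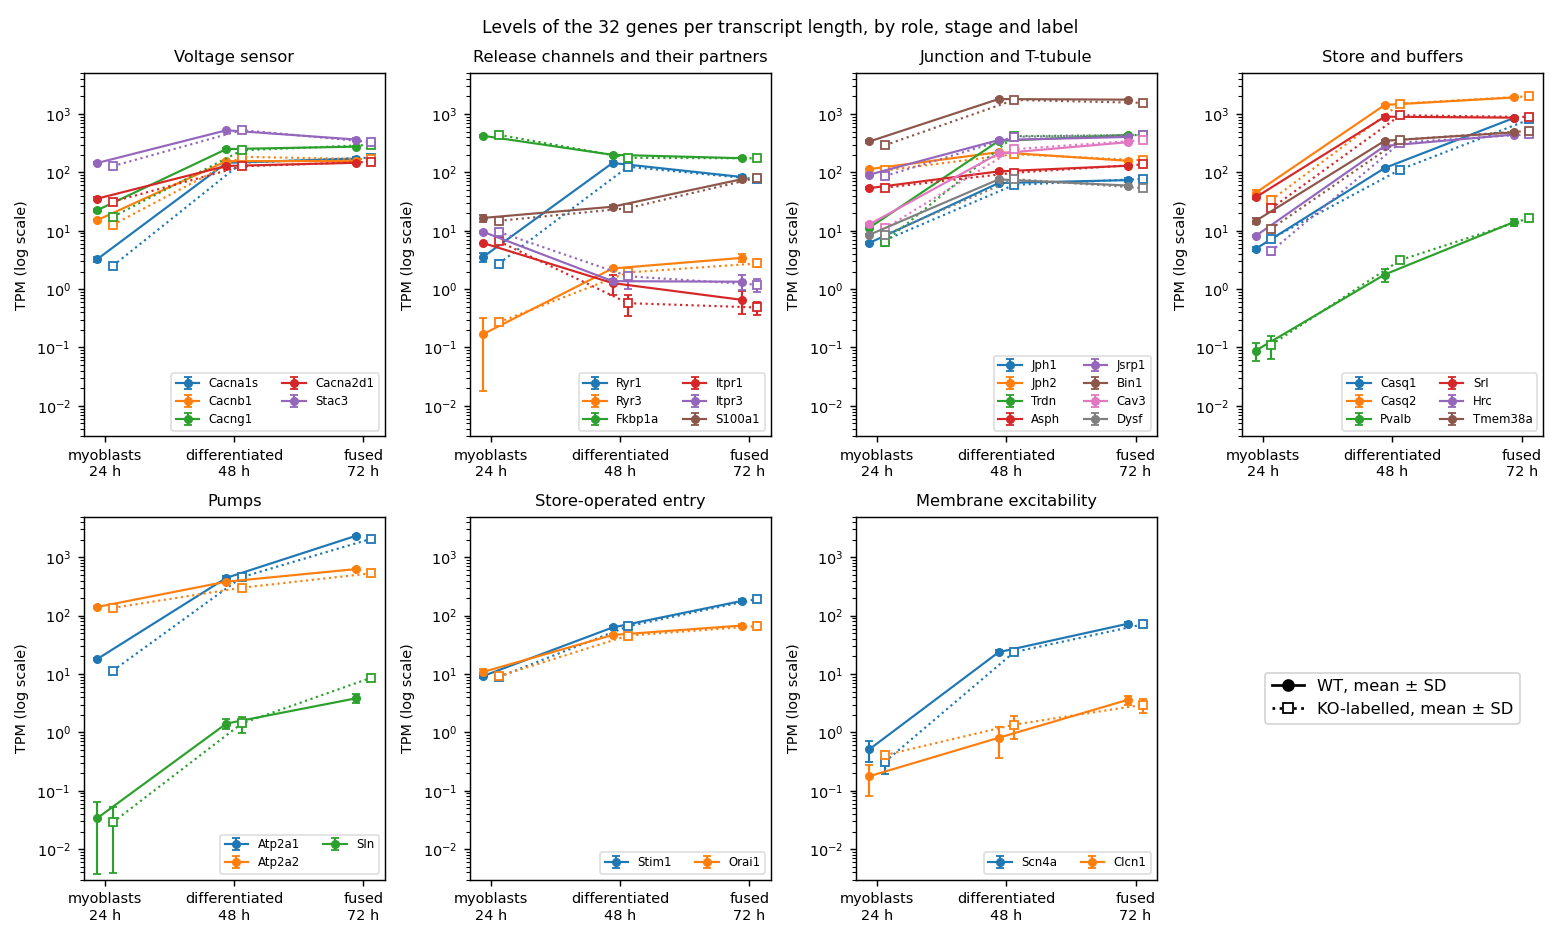
Mean TPM (log scale) of each of the 32 genes in the 6 groups, in 1 panel for each role, with stage on the horizontal axis; filled circles and solid lines are WT, open squares and dotted lines are KO-labelled, and bars are the SD over libraries. Most genes climb steeply between 24 h and 48 h, while Fkbp1a, Itpr1 and Itpr3 descend.

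All 5 voltage sensor genes rose as myoblasts became differentiated myotubes. Cacna1s, the pore and voltage-sensing subunit of Cav1.1, was at 13.5, 12.6 and 12.8 CPM in WT myoblasts, 499, 571 and 564 CPM in differentiated myotubes and 857, 798, 831 and 861 CPM in fused myotubes. Each stage lay wholly above the one before it. The log2 change from myoblasts to fused myotubes was 6.01 ± 0.062 (SE; adjusted p = 7.45e-32), the largest of the role group. Stac3, an adaptor that Cav1.1 needs for coupling, had the smallest, and it peaked in the middle: it was at 81.5, 78.6 and 78.9 CPM in WT myoblasts, 313, 301 and 314 CPM in differentiated myotubes and 246, 233, 235 and 233 CPM in fused ones. Fused libraries lay below all differentiated ones, with a log2 change of -0.39 ± 0.037 (adjusted p = 3.39e-10). The auxiliary subunits Cacnb1, Cacng1 and Cacna2d1 rose by 3.71, 3.88 and 2.65 on the log2 scale from myoblasts to fused myotubes.

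Pieces of the coding sequence that only some transcripts carry are shown for both subunits, because their share moved with stage. Transcripts were picked after their shares were seen, estimated counts of overlapping transcripts carry assignment error, and no test was made on shares. Exon 29 of Cacna1s (57 bases, GRCm38 chr1:136104570-136104626, plus strand) is skipped in the embryonic form of Cav1.1. The Cacna2d1 stretch is 57 bases of exon 19 (chr5:16322539-16322595, plus strand). Capitals mark the alternative stretch and lower case the 15 coding bases on each side, taken from the GENCODE M21 transcripts.
Cacna1s: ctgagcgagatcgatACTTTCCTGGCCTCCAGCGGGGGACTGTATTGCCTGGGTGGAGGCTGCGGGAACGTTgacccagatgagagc
Cacna2d1: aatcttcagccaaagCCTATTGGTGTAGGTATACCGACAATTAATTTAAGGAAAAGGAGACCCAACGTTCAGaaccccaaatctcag

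Transcripts with the Cacna1s exon took 26.9%, 23.7% and 25.3% of the gene's estimated counts in WT differentiated myotubes and 53.2%, 53.4%, 54.3% and 51.6% in WT fused myotubes. The stages did not overlap, and KO-labelled libraries showed the same order, with 27.8% and 28.7% against 52.9% to 56.8%. In differentiated myotubes both KO-labelled values lay above all WT ones, and in fused myotubes the labels overlapped. In myoblasts, where the gene is low, the share ran from 8.47% to 52.7% and has no stable value. The Cacna2d1 exon took 1.39% ± 0.351 (SD, n = 3) in WT myoblasts, 5.2% ± 1.01 (n = 3) in differentiated and 10.7% ± 0.784 (n = 4) in fused myotubes.

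Release channels split by family. Ryr1, the release channel of skeletal muscle, rose from 28.8, 33.5 and 35.5 CPM in WT myoblasts to 1214, 1349 and 1255 CPM in differentiated myotubes, and was at 1009, 914, 1041 and 1103 CPM in fused ones. The fused libraries were all lower than the differentiated ones (log2 change -0.32 ± 0.063, adjusted p = 4.89e-05). Ryr3, a second isoform found mainly in developing muscle, had the largest change of the group, from 0.176, 0.346 and 0.234 CPM in WT myoblasts to 10.6, 13.1 and 12.1 CPM and then 19, 16.7, 15.4 and 21 CPM. Per length it stayed far below Ryr1, at 3.43 ± 0.554 TPM against 83.5 ± 6.57 TPM in WT fused myotubes (SD, n = 4).

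The inositol trisphosphate receptors Itpr1 and Itpr3, which release calcium in many cell types, went down. Itpr1 was at 21.8, 23.9 and 22.1 CPM in WT myoblasts, 4.46, 4.83 and 5.95 CPM in differentiated and 3.01, 2.47, 2.22 and 2.39 CPM in fused myotubes. The 3 stages did not overlap, and the log2 change over the whole course was -3.15 ± 0.099 (adjusted p = 3.07e-21). Itpr3 fell from 49.7, 52.6 and 56 CPM to 7.35, 10.2 and 9.85 CPM at 48 h, with no call between 48 h and 72 h. Fkbp1a, which encodes the FKBP12 protein bound to ryanodine receptors, was at 374, 367 and 374 CPM in WT myoblasts, 214, 200 and 195 CPM in differentiated and 174, 187, 187 and 193 CPM in fused myotubes, the smallest change of the group. Most of its fall came by 48 h (log2 -0.87 ± 0.041, adjusted p = 4.18e-17). S100a1, a calcium sensor that binds Ryr1, rose from 6 ± 0.773 to 33.2 ± 3.41 CPM (SD, n = 3 and 4).

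Ryr1 transcripts differ by exon 70, 15 bases at chr7:29056234-29056248 on the minus strand, which juvenile forms of the channel lack. It is shown, again with 15 coding bases on each side in lower case, because it is the known developmental splice site of this channel.
Ryr1: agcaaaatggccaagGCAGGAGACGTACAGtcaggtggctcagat

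The exon's share was 63%, 67.3% and 57.8% in WT differentiated myotubes and 73.5%, 79%, 78.4% and 64.3% in WT fused ones. These WT stages overlapped. KO-labelled libraries were at 68.2% and 55% at 48 h and at 76.4%, 85.8%, 84.5% and 75.8% at 72 h, without overlap, and at each of these stages their range overlapped that of WT. In KO-labelled myoblasts, where Ryr1 was at 22.6 to 27.4 CPM, single libraries ran from 5.15% to 97.8%. The share was not tested.

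The 8 junction and T-tubule genes all rose from myoblasts to differentiated myotubes. Trdn, the triadin that anchors calsequestrin at the release channel, had the largest change and was at 7.73, 9.38 and 8.02 CPM in WT myoblasts, 266, 289 and 290 CPM in differentiated and 470, 422, 427 and 438 CPM in fused myotubes. No stages overlapped (log2 change over the course 5.72 ± 0.067, adjusted p = 5.9e-31). The T-tubule genes Cav3 and Bin1 rose by 4.91 and 2.74, the membrane repair gene Dysf by 2.99, and the junctophilins Jph1 and Jph2, which tether the store to the T-tubule, by 3.88 and 0.73. Jsrp1, whose protein JP-45 links Cav1.1 with calsequestrin, rose by 2.40. Jph2 and Dysf fell from 48 h to 72 h, by 0.38 and 0.31 on the log2 scale.

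Asph had the smallest change of its role group. It encodes an aspartyl hydroxylase and, from the same locus, short proteins of the junctional membrane. It was at 104, 107 and 103 CPM in WT myoblasts, 115, 118 and 114 CPM in differentiated and 148, 151, 145 and 149 CPM in fused myotubes. Its rise from 24 h to 48 h was 0.14 ± 0.035 (adjusted p = 0.000555), and with scaling by library size alone it became a fall of 0.11. Behind this small change the transcripts exchanged places. Asph-206, with 5 exons and 207 codons, went from 0.823% ± 0.145 (SD, n = 3) of the gene's counts in WT myoblasts to 39.9% ± 2.88 (n = 3) and 53.1% ± 1.71 (n = 4). Asph-212, with 725 codons, went from 32.7% ± 2.39 in WT myoblasts to a listed 0% in every later library, and the 272-codon Asph-208 from 36.2% ± 0.924 to 3.31% ± 1.64 in fused myotubes.

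Every gene of the store and its buffers rose at both steps; the second rise of Srl, 0.13 ± 0.048 (adjusted p = 0.017), lost its call without WT differentiated library 1 (0.07), without WT fused library 4 and under other scalings. Casq1, the calsequestrin of fast fibres, had the largest fitted rise of the 32 genes, from 5.1, 4.41 and 5.35 CPM in WT myoblasts to 121, 126 and 136 CPM and then 1013, 1065, 1047 and 962 CPM. The rise of 7.68 ± 0.07 on the log2 scale (adjusted p = 2e-32) came in 2 steps of 4.68 and 3.00. Casq2, the cardiac and slow-fibre calsequestrin, rose mostly by 48 h, with 31.9 ± 2.37, 1443 ± 56.8 and 2044 ± 68.9 CPM at the 3 stages (SD, n = 3, 3 and 4). Per length, Casq2 stood above Casq1 throughout, with 1432 ± 70.7 against 119 ± 4.93 TPM at 48 h and 1920 ± 87.1 against 856 ± 38.5 TPM at 72 h. Srl, the luminal calcium-binding sarcalumenin, had the smallest change of the group (5.14 ± 0.062), from 74.5, 73 and 79 CPM to 2251, 2503 and 2550 CPM and 2612, 2633, 2610 and 2808 CPM, and its transcripts with a long 1311-base coding exon took 16.1% ± 1.71, 18.6% ± 0.357 and 29.2% ± 0.736 of its counts. Hrc, a histidine-rich calcium-binding protein of the store, and Tmem38a, the TRIC-A counter-ion channel, rose by 6.02 and 5.43. Pvalb, the cytosolic buffer parvalbumin of fast fibres, had 4 counts over all WT myoblasts, so its ratio of fused myotubes to myoblasts is given with its 95% counting interval, 192 (74.6 to 706), which covers counting error only. That interval is too wide to order Pvalb and Casq1 by size of rise.

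Both SERCA pumps rose, and their order changed. Atp2a1, the pump of fast fibres, was at 31.9, 30.2 and 33.8 CPM in WT myoblasts, 851, 908 and 979 CPM in differentiated and 5334, 5269, 5330 and 4862 CPM in fused myotubes (log2 change over the course 7.34 ± 0.072, adjusted p = 3.2e-32). Atp2a2, the pump of slow fibres, heart and other tissues, was at 371, 395 and 374 CPM, 985, 1051 and 1066 CPM and 1826, 1820, 1759 and 1722 CPM (2.23 ± 0.042, adjusted p = 2.15e-26). Per length Atp2a2 was the higher of the pair in WT myoblasts, at 141 ± 6.41 against 18.1 ± 0.905 TPM. In fused myotubes Atp2a1 was the higher, at 2325 ± 116 against 628 ± 31.4 TPM, and the highest of the 32 genes. Sln, the small SERCA inhibitor sarcolipin, had 2 counts over all WT myoblasts, and the ratio of fused myotubes to myoblasts was 142 with an interval of 39 to 1182.

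The Atp2a2 transcripts also exchanged places. The long coding end, 149 bases at chr5:122457154-122457302 on the minus strand in the last exon of the long transcript, makes the tail of the widely expressed SERCA2b form; without it the muscle form SERCA2a is made. The stretch is shown in capitals after the 15 coding bases before it.
Atp2a2: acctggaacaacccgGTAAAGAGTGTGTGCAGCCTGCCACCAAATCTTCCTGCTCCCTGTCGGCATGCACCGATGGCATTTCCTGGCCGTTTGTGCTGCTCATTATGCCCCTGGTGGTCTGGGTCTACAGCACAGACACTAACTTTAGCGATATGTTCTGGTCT

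Transcripts with this end took 77.8%, 78% and 78.6% of Atp2a2 counts in WT myoblasts, 23.2%, 21.2% and 20.3% in differentiated and 6.96%, 7.38%, 7.91% and 7.89% in fused myotubes. No stages overlapped. KO-labelled differentiated libraries were at 15.3% and 17.4%, both lower than all 3 WT ones, while KO-labelled fused libraries, at 6.52% to 8.26%, spanned the WT range. The 998-codon transcript that ends short rose from 21.9% ± 0.451 to 92.4% ± 0.455 of the counts in WT cells (SD, n = 3 and 4).

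**Figure D2:**
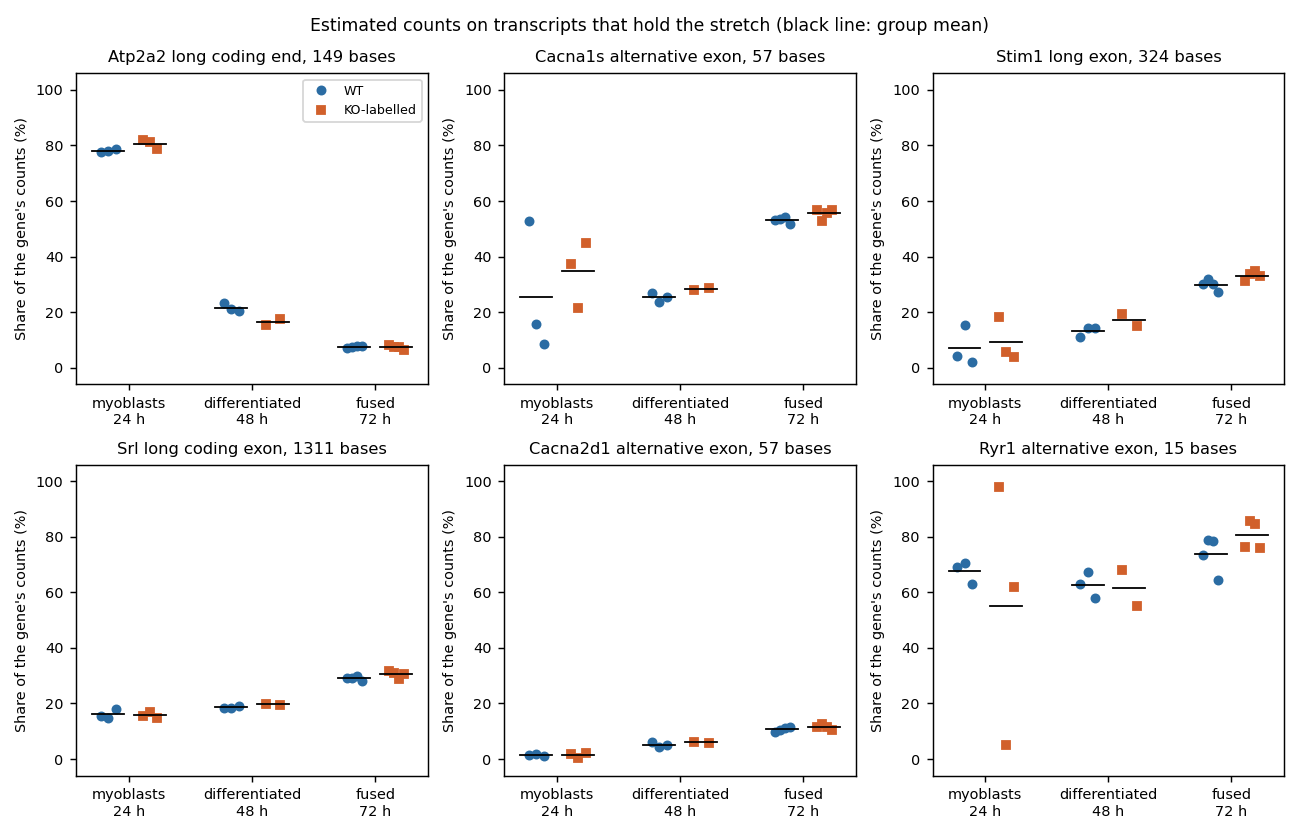
Share of a gene's estimated counts on transcripts that hold an alternative coding stretch, in percent, for each library by stage; circles are WT, squares KO-labelled and black lines group means. The Atp2a2 long end drops from about 80% to under 10%, the Cacna1s exon and the Stim1 long exon rise from 48 h to 72 h, and the Ryr1 exon and myoblast Cacna1s values scatter.

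The store-operated entry genes Stim1 and Orai1 and the excitability genes Scn4a and Clcn1 rose at both steps in WT cells. Stim1, the calcium sensor of the store, was at 19.7, 19.6 and 21.1 CPM in WT myoblasts, 152, 157 and 169 CPM in differentiated and 526, 516, 498 and 460 CPM in fused myotubes, without overlap (4.63 ± 0.056, adjusted p = 1.03e-30). The transcript with a 324-base longer exon 11, which corresponds to the long muscle form STIM1L, took 10.9%, 14.3% and 14.2% at 48 h and 30.1%, 32.1%, 30% and 27.2% at 72 h in WT cells, without overlap. KO-labelled libraries were at 19.2% and 15% at 48 h, above the 3 WT ones. Orai1, the entry channel that Stim1 opens, rose less, from 13.5, 12.1 and 14.9 CPM to 64.5, 61.5 and 67.2 CPM and 100, 104, 105 and 99 CPM (2.91 ± 0.064, adjusted p = 7.65e-25). Scn4a, the muscle sodium channel, rose from 1.2, 0.864 and 1.97 CPM to 52.1, 65.3 and 62.7 CPM and 210, 205, 204 and 194 CPM (7.19 ± 0.10, adjusted p = 3.82e-29). Clcn1, the chloride channel that steadies the resting membrane, was at 0.457, 0.346 and 0.234 CPM, then 0.901, 1.48 and 1.83 CPM, then 11.8, 9.01, 9.31 and 7.62 CPM.

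Per length, WT fused myotubes held Atp2a1, Casq2 (1920 ± 87.1 TPM) and Bin1 (1763 ± 35 TPM) at the top. Srl and Casq1 followed at 867 ± 36.9 and 856 ± 38.5 TPM and did not differ beyond their spread. At the bottom were Clcn1 (3.62 ± 0.625 TPM), Ryr3, Itpr3 (1.34 ± 0.389 TPM) and Itpr1 (0.656 ± 0.277 TPM), and Sln (3.83 ± 0.662 TPM) overlapped with Clcn1. In WT myoblasts the highest were Fkbp1a (423 ± 14.4 TPM), Bin1 (339 ± 19.1 TPM) and Stac3 (145 ± 4.2 TPM), and Stac3 did not differ from Atp2a2 beyond the spread.

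Promoters are shown for 4 members that rose together and hold a motif of muscle regulators, chosen after their values and motifs were seen; other members that rose as steeply, such as Pvalb and Cacna1s, also hold one and are not shown. RefSeq promoter windows (build GRCm38.p6) matched 20 of the 32 genes with 24 windows, and the 250 bases before each start were searched on both strands. The E-box CAGCTG, a sequence bound by MyoD and myogenin and its own reverse complement, was present in 9 of the 24 windows (37.5%), from 8 genes, and in 13% of all 32851 windows. The general E-box CANNTG, which includes CAGCTG, was in 62.5% against 66.2%. The MEF2 motif was in 12.5% of the 24 windows, those of Casq2, Clcn1 and Pvalb, and in 2.92% of all. A match describes the letters and shows no binding. CAGCTG starts 195 bases before the start of Casq1, 22 before Hrc and 55 before Atp2a1, and also lies before Cacna1s, Cav3, Jph2, Orai1 and Fkbp1a, the last of which fell. Capitals mark CAGCTG, or the MEF2 motif in Casq2. The windows are chr1:172219896-172220145 (minus) for Casq1, chr7:45335019-45335268 (plus) for Hrc, chr7:126463074-126463323 (minus) for Atp2a1 and chr3:102086165-102086414 (plus) for Casq2.
Casq1: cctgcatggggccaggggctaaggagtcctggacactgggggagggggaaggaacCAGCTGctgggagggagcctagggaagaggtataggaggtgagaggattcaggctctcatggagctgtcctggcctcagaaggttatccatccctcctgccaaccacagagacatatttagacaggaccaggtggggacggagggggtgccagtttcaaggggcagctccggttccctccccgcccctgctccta
Hrc: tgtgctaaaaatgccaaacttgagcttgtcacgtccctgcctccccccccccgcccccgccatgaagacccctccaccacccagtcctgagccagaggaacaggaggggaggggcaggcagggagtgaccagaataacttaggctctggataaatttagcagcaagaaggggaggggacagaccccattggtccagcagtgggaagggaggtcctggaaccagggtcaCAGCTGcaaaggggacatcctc
Atp2a1: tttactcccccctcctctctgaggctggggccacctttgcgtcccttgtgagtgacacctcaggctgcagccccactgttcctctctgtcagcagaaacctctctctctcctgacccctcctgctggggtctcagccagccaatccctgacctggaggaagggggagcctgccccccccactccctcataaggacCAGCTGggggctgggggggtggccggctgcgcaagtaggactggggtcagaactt
Casq2: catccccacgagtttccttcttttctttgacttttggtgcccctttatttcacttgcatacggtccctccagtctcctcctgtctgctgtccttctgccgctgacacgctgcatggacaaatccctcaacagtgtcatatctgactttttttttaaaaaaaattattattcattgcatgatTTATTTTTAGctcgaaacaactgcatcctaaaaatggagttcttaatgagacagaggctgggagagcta

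Between labels, proliferating myoblasts differed in 15 of the 32 genes, against 11.5% of all genes tested. Of these, 14 were lower in KO-labelled myoblasts (6.67% of all genes were lower) and 1, Casq1, was higher (4.86% were higher). All 5 voltage sensor genes were lower, as were 4 of 6 store and buffer genes, 2 of 8 junction genes, 1 of 6 release genes, 1 of 3 pumps and 1 of 2 store-operated entry genes. The median log2 difference was -0.17 for the 32 genes and 0.01 for all genes.

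Hrc showed the largest difference. WT myoblasts held 10.2, 11.1 and 11.4 CPM and KO-labelled myoblasts 5.24, 6.05 and 6.84 CPM, without overlap, a log2 difference of -0.86 ± 0.10 (edgeR, adjusted p = 1.82e-06). Srl was at 74.5, 73 and 79 CPM against 47.7, 48.1 and 55 CPM (-0.59 ± 0.059, adjusted p = 6.66e-08). Trdn was at 7.73, 9.38 and 8.02 CPM against 4.9, 5.33 and 5.47 CPM (-0.67 ± 0.10, adjusted p = 3.44e-05). In each of these 3 genes every KO-labelled library lay below every WT one. Atp2a1 was at 31.9, 30.2 and 33.8 CPM against 20.6, 21.4 and 22.4 CPM (-0.58 ± 0.071, adjusted p = 1.82e-06), again without overlap.

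Among the voltage sensor genes Cacna1s was at 13.5, 12.6 and 12.8 CPM in WT and 9.05, 9.52 and 10.1 CPM in KO-labelled myoblasts (-0.45 ± 0.079, adjusted p = 0.00031). Cacng1, the gamma subunit, was at 20.9, 19 and 21.4 CPM against 14.5, 16.2 and 16.4 CPM (-0.39 ± 0.064, adjusted p = 0.000139). Neither pair of groups overlapped. Bin1, which shapes T-tubules, was at 287, 275 and 294 CPM against 253, 254 and 253 CPM (-0.17 ± 0.041, adjusted p = 0.00628). Ryr1 was at 28.8, 33.5 and 35.5 CPM against 22.6, 26 and 27.4 CPM (-0.36 ± 0.089, adjusted p = 0.00724), and Orai1 at 13.5, 12.1 and 14.9 CPM against 11.7, 10.6 and 12 CPM (-0.25 ± 0.082, adjusted p = 0.0467); in both the groups lay close together, and the highest KO-labelled library was just under the lowest WT one.

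Casq1 went the other way. WT myoblasts held 5.1, 4.41 and 5.35 CPM and KO-labelled myoblasts 7.56, 7.36 and 7.4 CPM, without overlap (0.58 ± 0.099, adjusted p = 0.000206). Its cardiac relative Casq2 was lower, at 31.9 ± 2.37 against 27.3 ± 2.23 CPM (SD, n = 3 and 3; adjusted p = 0.0195). A Casq1 exon overlaps an opposite-strand gene, and since the strand setting of the counting is not stated, its counts may include that gene's reads.

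Markers of differentiated cells were lower in the same libraries. The summed myotube markers were at 707 to 832 CPM in WT and 415 to 472 CPM in KO-labelled myoblasts, with Myog at -0.63, Myh3 at -0.92, Acta1 at -0.78 and Ckm at -0.81 on the log2 scale, all called. The 4 myoblast markers summed to 1548 to 1681 against 1411 to 1488 CPM, and of these Des was lower (-0.33, adjusted p = 0.000115). The part of these markers in the differences above was not tested. Leaving out KO-labelled myoblast library 1 ended the calls of Ryr1, Cacna2d1, Stac3, Casq2 and Orai1, and leaving out WT library 3 those of Ryr1, Stac3, Casq2 and Orai1. Each of the other 4 libraries ended 1 to 3 calls among these 5 genes, and 10 of the 15 genes were called under every alternative. Where a call ended, Ryr1 was at -0.30 to -0.29 (-0.36 with all libraries), Cacna2d1 at -0.16 to -0.12 (-0.16) and Stac3 at -0.15 to -0.12 (-0.14). Casq2 was at -0.23 to -0.18 (-0.23) and Orai1 at -0.28 to -0.17 (-0.25).

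**Figure D3:**
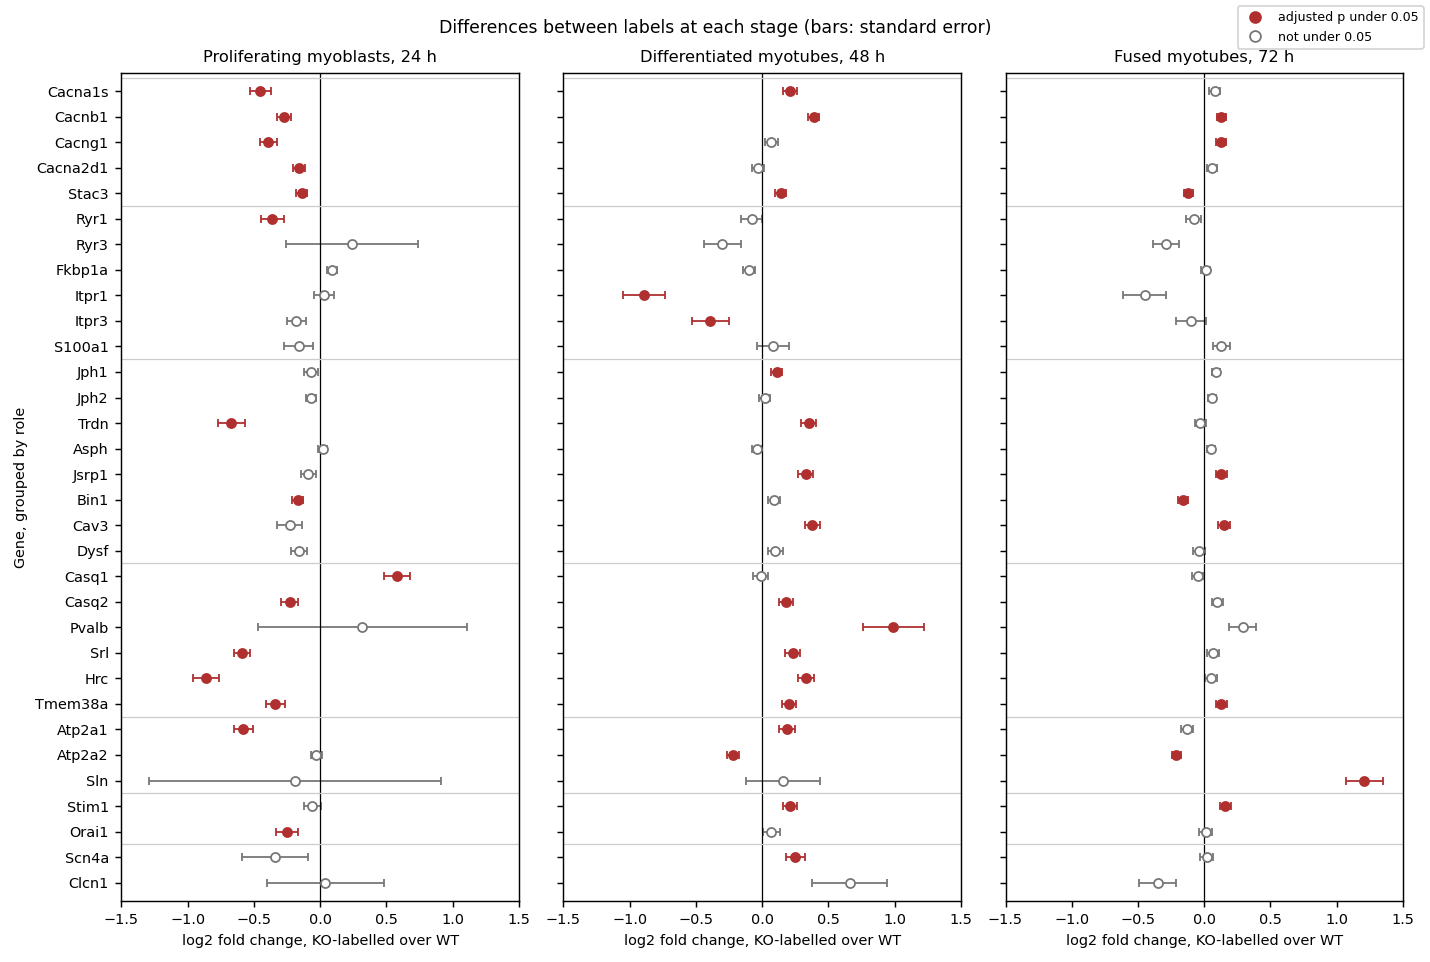
Log2 fold change of KO-labelled over WT libraries for the 32 genes, grouped by role, at each stage; bars are standard errors, filled red points have an adjusted p under 0.05 and open grey points do not. Called points lie mostly left of 0 in myoblasts and mostly right of 0 in differentiated myotubes.

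In differentiated myotubes 18 of the 32 genes differed between labels, against 25.2% of all genes. Now 15 were higher in KO-labelled libraries (11.1% of all genes) and 3 were lower (14.1%), with a median of 0.12 against -0.01. The higher genes were 3 of 5 voltage sensor genes, 4 of 8 junction genes, 5 of 6 store and buffer genes, Atp2a1, Stim1 and Scn4a, and the lower ones Atp2a2, Itpr1 and Itpr3. With scaling by library size alone the split was 10 higher and 4 lower, and with an offset for effective transcript length 7 higher and 1 lower.

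Cacnb1, the beta subunit that brings Cav1.1 to the membrane, was at 268, 278 and 280 CPM in WT and 356 and 363 CPM in KO-labelled differentiated myotubes (0.39 ± 0.041, adjusted p = 5.7e-08). Cav3, the caveolin of muscle, was at 167, 165 and 174 CPM against 221 and 219 CPM (0.38 ± 0.057, adjusted p = 1.17e-05), and Trdn at 266, 289 and 290 CPM against 366 and 353 CPM (0.35 ± 0.054, adjusted p = 1.56e-05). Both KO-labelled libraries lay above all WT libraries in these genes. Hrc was at 373, 412 and 456 CPM against 491 and 546 CPM (0.33 ± 0.061, adjusted p = 0.000224), and Jsrp1 at 312 ± 15.3 against 392 ± 1.12 CPM (SD, n = 3 and 2; adjusted p = 6.65e-05). Pvalb, low at this stage, was at 1.42, 1 and 0.88 CPM against 2.03 and 2.25 CPM, without overlap (0.99 ± 0.23, adjusted p = 0.00224).

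The calls of smaller differences depended on single libraries. Cacna1s was at 499, 571 and 564 CPM against 604 and 659 CPM (0.21 ± 0.052, adjusted p = 0.00289). Stim1 was at 152, 157 and 169 CPM against 177 and 193 CPM (0.21 ± 0.053, adjusted p = 0.00321), Scn4a at 52.1, 65.3 and 62.7 CPM against 70.4 and 72.7 CPM (0.25 ± 0.073, adjusted p = 0.0124), and Atp2a1 at 851, 908 and 979 CPM against 970 and 1113 CPM (0.19 ± 0.06, adjusted p = 0.0201). The groups overlapped in Atp2a1 and not in the other three. Without KO-labelled differentiated library 2, of the 18 calls those of Cacna1s, Stac3, Jph1, Casq2, Atp2a1, Srl, Tmem38a, Stim1, Itpr3 and Scn4a ended. Some of these differences shrank. Atp2a1 went from 0.19 to 0.09, Stac3 from 0.14 to 0.08, Cacna1s and Stim1 from 0.21 to 0.15 and Casq2 from 0.18 to 0.12. Others stayed nearer their size. Jph1 went from 0.11 to 0.12, Itpr3 from -0.39 to -0.37, Scn4a from 0.25 to 0.23, Srl from 0.23 to 0.19 and Tmem38a from 0.20 to 0.17. Each of the other 4 libraries ended 2 or 3 calls, among Jph1, Itpr3, Atp2a1, Scn4a and Stac3. The fit with 1 KO-labelled library assumes that it varies like the other groups. Only 7 of the 18 were called under every alternative, Cacnb1, Trdn, Atp2a2, Pvalb, Hrc, Jsrp1 and Cav3.

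Atp2a2 was lower in KO-labelled differentiated myotubes, at 985, 1051 and 1066 CPM against 858 and 918 CPM, without overlap (-0.22 ± 0.047, adjusted p = 0.000848). Itpr1 was at 4.46, 4.83 and 5.95 CPM against 2.3 and 3.25 CPM, also without overlap (-0.89 ± 0.16, adjusted p = 0.000104), a call that the effective-length offset ended. Itpr3 was at 7.35, 10.2 and 9.85 CPM against 7.11 and 6.97 CPM (-0.39 ± 0.14, adjusted p = 0.0491), a call that leaving out any of 4 libraries ended: KO-labelled library 1 or 2 or WT library 2 or 3. With the effective-length offset the Itpr3 value turned to 0.338. The summed myotube markers spanned 29134 to 33971 CPM in WT and 29663 to 33620 CPM in KO-labelled libraries at this stage, with Myog at -0.01, Myh3 at -0.01, Acta1 at 0.10 and Ckm at 0.08 (adjusted p from 0.405 to 0.953). Of the 4 myoblast markers, Pax7 (-0.92 ± 0.14, adjusted p = 1.03e-05), Myod1 (-0.31, adjusted p = 0.000158) and Myf5 (-0.19, adjusted p = 0.0124) were lower in KO-labelled differentiated myotubes, and Des was at 0.10 (adjusted p = 0.246). Their sum, mostly Des, was at 3664 to 3960 CPM in WT and 3679 to 4056 CPM in KO-labelled libraries and overlapped. The 4 immune markers summed to 15.5 to 18.4 CPM in WT and 24.3 to 28 CPM in KO-labelled libraries, nearly all of it Itgam, with the other 3 under 2 CPM. The 3 smooth muscle markers summed to 2567 to 2854 against 1915 to 2142 CPM, nearly all of it Acta2, with the other 2 under 2 CPM. The part of these markers in the differences was not tested.

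**Figure D4:**
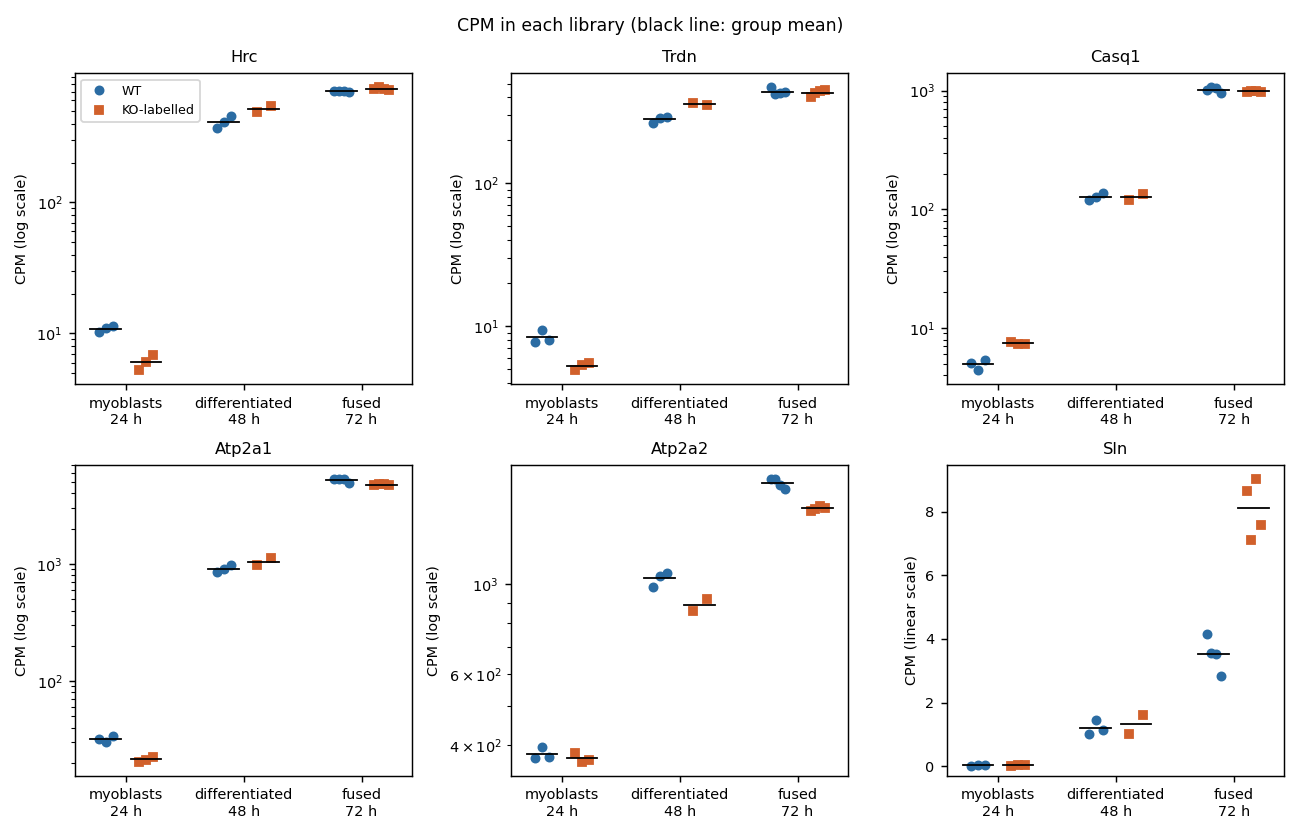
CPM of Hrc, Trdn, Casq1, Atp2a1 and Atp2a2 (log scale) and of Sln (linear scale) in each of the 19 libraries by stage; circles are WT, squares KO-labelled and black lines group means. Hrc and Trdn squares lie below the circles at 24 h and above them at 48 h, Casq1 squares lie above at 24 h only, and Sln squares lie above at 72 h.

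In fused myotubes 10 of the 32 genes differed, against 13% of all genes, with 7 higher (6.33% of all genes) and 3 lower (6.68%), and a median of 0.05 against -0.01. Sln had the largest fitted difference of the 32 genes between labels. WT fused myotubes held 4.15, 3.55, 3.52 and 2.84 CPM and KO-labelled ones 8.66, 7.12, 9.03 and 7.59 CPM, and the lowest KO-labelled library was above the highest WT one (1.21 ± 0.14, adjusted p = 7.45e-07). Sln lies at chr9:53850164-53854560 on the plus strand, and no exon of another gene overlaps it. These are 273 counts over the WT and 592 over the KO-labelled fused libraries.

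Atp2a2, the SERCA2 gene, was lower again, at 1826, 1820, 1759 and 1722 CPM against 1519, 1537, 1565 and 1541 CPM, without overlap (-0.21 ± 0.036, adjusted p = 0.000201). Atp2a1 was at 5334, 5269, 5330 and 4862 CPM against 4708, 4798, 4760 and 4710 CPM; the groups did not overlap, but the difference of -0.13 ± 0.046 missed the threshold (adjusted p = 0.0594). Bin1 was at 1874, 1910, 1972 and 1871 CPM against 1739, 1725, 1664 and 1684 CPM (-0.16 ± 0.035, adjusted p = 0.00185). Cacnb1 was at 310, 292, 305 and 296 CPM against 330, 327, 324 and 334 CPM (0.13 ± 0.032, adjusted p = 0.0079). The labels did not overlap in Bin1 or Cacnb1. The 3 cardiac markers summed to 3.21 to 4.02 CPM in WT and 1.45 to 1.83 CPM in KO-labelled fused libraries, nearly all of it Myh6, with Nppa and Myl7 at or near 0. The myotube markers summed to 26001 to 28418 against 25948 to 26893 CPM and the myoblast markers to 5458 to 6057 against 5503 to 5914 CPM, both overlapping. Among the myotube markers Myh3 was at 13096 to 14850 CPM in WT and 12277 to 13026 CPM in KO-labelled libraries, without overlap (-0.16, adjusted p = 0.0568), while Acta1 was at 0.08, Ckm at -0.14 and Myog at -0.01 (adjusted p from 0.0926 to 0.963). Among the myoblast markers Myf5 was lower (-0.31, adjusted p = 3.19e-06). The part of these markers was not tested.

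The other calls were small. Stim1 was at 526, 516, 498 and 460 CPM against 550, 556, 558 and 564 CPM (0.16 ± 0.039, adjusted p = 0.0074), Cacng1 at 288, 294, 315 and 307 CPM against 335, 330, 329 and 325 CPM (0.13 ± 0.038, adjusted p = 0.0195), and Tmem38a at 804, 839, 840 and 776 CPM against 898, 896, 885 and 875 CPM (0.13 ± 0.041, adjusted p = 0.0442). These groups did not overlap. Cav3 was at 263, 273, 287 and 313 CPM against 325, 322, 308 and 303 CPM (0.15 ± 0.043, adjusted p = 0.0258), where the groups overlapped. Leaving out KO-labelled fused library 1 ended the calls of Cacng1, Stac3, Jsrp1, Tmem38a and Cav3, leaving out WT library 1 the same 5, KO-labelled library 2 those of Stac3, Jsrp1, Tmem38a and Cav3, and WT library 2 those of Cacng1, Jsrp1 and Cav3. KO-labelled library 3 ended Stac3 and Tmem38a, and WT library 4 Jsrp1 and Tmem38a. Where a call ended, the difference kept its sign and most of its size. Cacng1 was at 0.11 to 0.12 (0.13 with all libraries), Stac3 at -0.12 to -0.10 (-0.12) and Jsrp1 at 0.10 to 0.13 (0.13). Tmem38a was at 0.10 to 0.13 (0.13) and Cav3 at 0.11 to 0.13 (0.15). Called under every alternative were Cacnb1, Atp2a2, Sln and Bin1. With the effective-length offset 2 genes were higher and 2 lower.

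The label difference itself changed with stage. From myoblasts to differentiated myotubes it changed in 20 of the 32 genes (interaction term in edgeR), against 19.1% of all genes, upward in 16 (7.78% of all genes) and downward in 4 (11.3%). The largest upward changes were in Hrc (1.18 ± 0.12, adjusted p = 5.79e-08), Trdn (1.03 ± 0.11, adjusted p = 2.19e-07) and Srl (0.82 ± 0.082, adjusted p = 4.24e-08), and the downward ones were in Itpr1 (-0.92), Casq1 (-0.59), Atp2a2 (-0.19) and Fkbp1a (-0.19). With a single library left out, Atp2a2, Stim1, Orai1, Dysf or Fkbp1a lost the call, the offset ended that of Itpr1, and 14 of the 20 were called under every alternative. With the offset the split was 14 upward and 1 downward. The label difference of all 4 myotube markers changed upward over this step, by 0.62 in Myog, 0.90 in Myh3, 0.87 in Acta1 and 0.89 in Ckm (adjusted p from 1.04e-07 to 0.0106). Of the myoblast markers, Des changed by 0.43 (adjusted p = 0.000306), Pax7 by -0.93 (adjusted p = 4.08e-05), Myod1 by -0.27 (adjusted p = 0.0129) and Myf5 by -0.20 (adjusted p = 0.0476). The calls of Ckm, Myod1 and Myf5 were lost under some alternatives, and the part of these markers was not tested. The 2 label comparisons of the next count have no library in common. Lower in KO-labelled myoblasts and higher in KO-labelled differentiated myotubes were 9 of the 32 genes, namely Cacna1s, Cacnb1, Stac3, Trdn, Casq2, Atp2a1, Srl, Hrc and Tmem38a, where 1.12% of all genes met both conditions. Without KO-labelled differentiated library 2 these were 3, Cacnb1, Trdn and Hrc, with the effective-length offset 4, and with library size alone or only the groups compared 6.

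From differentiated to fused myotubes the label difference changed in 9 of the 32 genes, against 14.8% of all genes, downward in 8 (6.54%) and upward in Sln alone (8.27%). This step and the one before it share the 48 h libraries of both labels, with opposite sign. A high 48 h reading in KO-labelled libraries would raise the first change and lower the second, so the steps are not independent. All downward genes but Clcn1 were among the upward genes of the step before. The Sln change was 1.06 ± 0.31 (adjusted p = 0.0213), and it lost its call without WT differentiated library 2 (0.91), without KO-labelled differentiated library 1 (0.76) or with the effective-length offset. Clcn1 changed by -1.01 ± 0.31 (adjusted p = 0.0295), but leaving out KO-labelled differentiated library 2 (-0.77), WT differentiated library 1 (-0.80) or WT fused library 1 (-0.87) ended the call. The first of these also ended the calls of Atp2a1 (-0.32 with all libraries, -0.22 without it), Hrc (-0.27 and -0.20) and Cav3 (-0.24 in both). That of Cav3 ended as well without KO-labelled differentiated library 1 (-0.23) or WT differentiated library 2 (-0.22). Cacnb1, Stac3, Trdn and Bin1 were called under every alternative, with changes of -0.26, -0.26, -0.38 and -0.25. Over the same step the label difference of the myoblast markers Pax7 and Myod1 changed by 0.72 (adjusted p = 0.0206, up to 0.122 among the alternatives) and 0.42 (adjusted p = 0.000191), and Acta2 averaged 2717 CPM in WT against 2027 CPM in KO-labelled libraries at 48 h and 491 against 522 CPM at 72 h; their part was not tested. Higher in KO-labelled myotubes at both 48 h and 72 h were Cacnb1, Jsrp1, Tmem38a, Stim1 and Cav3, 5 of 32 against 2.12% of all genes; without KO-labelled fused library 1 or 2 only Cacnb1 and Stim1 met both conditions, and with the effective-length offset only Cacnb1. Without WT fused library 2 or 4, without KO-labelled differentiated library 2, or with the filter of 10 counts in total alone, 3 genes did.

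Of the other genes of the pathway, 47 were tested. In KO-labelled myoblasts 16 were lower, where 6.67% of all genes were. In differentiated myotubes 9 were higher and 10 lower, where 11.1% and 14.1% of all genes were, and in fused myotubes 9 were higher and 4 lower, where 6.33% and 6.68% were. In myoblasts Kcnj2, an inward rectifier potassium channel, was at 1.11 ± 0.293 CPM in WT and 0.604 ± 0.0492 CPM in KO-labelled libraries (SD, n = 3 and 3; log2 -0.86, adjusted p = 0.00983). In differentiated myotubes the plasma membrane calcium pump Atp2b4 was lower (-1.01 ± 0.10, adjusted p = 3.26e-08), as was the SERCA3 gene Atp2a3 (-0.90 ± 0.17, adjusted p = 0.000226). The SERCA inhibitor Pln (0.64 ± 0.11, adjusted p = 0.000114) and the calmodulin-dependent kinase Camk2a (0.42 ± 0.053, adjusted p = 1.2e-06) were higher.

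In fused myotubes another SERCA regulator was lower. Mrln, which encodes the inhibitor myoregulin, was at 9.34 ± 0.84 CPM in WT and 5.68 ± 0.68 CPM in KO-labelled libraries (SD, n = 4 and 4; -0.73 ± 0.10, adjusted p = 2.02e-05). The kinase Camk2b was lower (-0.29 ± 0.045, adjusted p = 6.59e-05), and the exporters Slc8a1 (0.37 ± 0.077, adjusted p = 0.00183) and Atp2b4 (0.61 ± 0.11, adjusted p = 0.000343) were higher. Atp2b4 had opposite signs in differentiated and fused myotubes.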

How the data were processed

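RNA of 19 libraries was analysed from 1 deposited table per library. Per the file headers each table holds an estimated count, a TPM value, a length and an effective length for each of 121843 transcripts; these are the authors' values. The submitters' processing notes name bcl2fastq 2.20, fastp 0.20.0, kallisto 0.46.1, edgeR 3.36 and build GRCm38.p6, without their order. The annotation release and strand setting are not given in the sources used here, so the 15 genes with an exon that overlaps an opposite-strand gene (Casq1, Atp2a1, Atp2a2, Ryr1 and Cacna1s among them) are uncertain to that extent. File names read KO for either label, plus a T for KO-labelled libraries, and what that means is not stated; the labels were followed.

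Transcripts were matched by identifier to GENCODE M21 (121104 matched; the 739 others held 0.244% to 0.496% of the counts and were left out), summed to 35675 genes and rounded. Counts of all 19 libraries entered 1 fit in edgeR 4.0.16 (R 4.3.3) with a coefficient per group, filterByExpr, TMM scaling and quasi-likelihood tests, adjusted by Benjamini-Hochberg over 15129 genes, and called at 0.05. A check on simulated counts required recovery of most genes given a large change. It set no such requirement for small changes, such as many of the label differences here. Deposited TPM values were summed per gene and used only for levels. Replicate pairs differed by more than sampling noise (chi-square per degree of freedom 2.14 to 7.69).

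The members, the other lists and the tests were chosen with earlier results of these data known. Values per library are given for the called genes with the largest label difference (up to 2 in each role and comparison) and for those with the largest and smallest WT stage change in each role; of the other pathway genes, the 2 largest rises and falls that average 1 CPM or more in whichever label is higher (1 gene that meets this is not reported here). Jsrp1, Casq2 and the transcripts were named beyond this rule after their values were seen. A planned test of transcript usage called too many unchanged transcripts on simulated counts and was not used. Alternatives were DESeq2 1.42.0 (size factors, and its test), library size only, an effective-length offset, filters of 10 counts in total or a mean CPM of 1, only the groups compared, a replicate block and each library left out.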

Additional observations from a re-analysis of the deposited data

Results flagged for a closer look

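Of 64 groups of 4 libraries, 5 held a library far from the others by Dixon's test, which chance gives in about 1 group in 20. The WT fused libraries far from their group were those with Stac3 at 246 CPM, Atp2a1 at 4862 CPM and Srl at 2808 CPM, and the KO-labelled fused ones those with Itpr3 at 9.66 CPM and Scn4a at 203 CPM.

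The label difference changed between stages, by the interaction term of the edgeR fit. From myoblasts to differentiated myotubes it rose on the log2 scale by 0.66 in Cacna1s, 0.66 in Cacnb1, 0.46 in Cacng1, 0.28 in Stac3, 1.03 in Trdn, 0.41 in Casq2, 0.77 in Atp2a1, 0.82 in Srl, 1.18 in Hrc, 0.42 in Jsrp1, 0.54 in Tmem38a, 0.28 in Stim1, 0.32 in Orai1, 0.26 in Bin1, 0.61 in Cav3 and 0.25 in Dysf. It was -0.59 in Casq1, -0.19 in Atp2a2, -0.19 in Fkbp1a and -0.92 in Itpr1. From differentiated to fused myotubes it was 1.06 in Sln and -0.26 in Cacnb1, -0.26 in Stac3, -0.38 in Trdn, -0.32 in Atp2a1, -0.27 in Hrc, -0.25 in Bin1, -0.24 in Cav3 and -1.01 in Clcn1. Both steps use the differentiated libraries, with opposite sign, so these changes are not independent. The label difference of the myotube markers (0.62 to 0.90) and of the myoblast markers Des (0.43), Pax7 (-0.93), Myod1 (-0.27) and Myf5 (-0.20) moves with the first of these changes, and that of Pax7 (0.72) and Myod1 (0.42) with the second; their part was not tested.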

How the results depend on the processing

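The counts of members called over the 3 WT stage comparisons kept within 1.5 times their value under every alternative run. Between labels, the effective-length offset left 8 of 18 calls in differentiated myotubes, 4 of 10 in fused myotubes and 5 of 9 changes of the label difference from differentiated to fused myotubes (0 upward and 5 downward). Leaving out single libraries gave 8 to 17, 5 to 12 and 5 to 11, with the lowest values without KO-labelled differentiated library 2, KO-labelled fused library 1 (6 without library 2) and KO-labelled differentiated library 2. In myoblasts the count was 10 to 14 with single libraries left out. With the replicate block it was 14 in myoblasts, 17 in differentiated and 11 in fused myotubes. Over all genes tested, deviations of same-numbered libraries from their group means correlated at r from -0.054 to 0.056 (41 pairs). Differently numbered libraries were at -0.075 to 0.066 (108 pairs). All genes weigh the same in these values, low counts included, so they cannot show whether same-numbered libraries share an animal or culture. The labels do not say. Asph from 24 h to 48 h reversed to -0.110 with library size only (adjusted p from 1.7e-13 to 0.0692 over the alternatives), and Itpr3 in differentiated myotubes to 0.338 with the offset (0.0079 to 0.377). Over all genes the offset gave 587, 2146 and 821 calls in place of 1744, 3813 and 1968 between labels, and 1452 and 982 in place of 2892 and 2241 changes of the label difference; in myoblasts, leaving out WT library 3 gave 925, KO-labelled library 1 gave 1146, library 3 gave 1069, and fitting only the groups compared gave 2626. Of the genes called in myoblasts 42.1% were higher, and 29% with DESeq2 size factors or 18.9% with the offset; in differentiated myotubes 43.9%, and 27% with library size only. Of the changes of the label difference 40.7% were upward from myoblasts to differentiated myotubes (50.8% with size factors, 26.3% with library size only), and 55.8% from there to fused myotubes (75% with library size only). The causes were not tested. The alternatives planned for transcript usage were not run. Depth is lowest in myoblasts for Sln and Pvalb, with 2 and 4 counts over the WT libraries, and their label differences there carry standard errors of 1.1 and 0.79.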

Other observations

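Transcripts of 2 further members changed their shares with stage; these were looked at after the values were seen and carry no test. The 693-codon transcript Trdn-201 took 50.8% ± 4.61 (SD, n = 3) of the gene's counts in WT myoblasts, 56.4% ± 0.959 (n = 3) in differentiated and 71.5% ± 1.3 (n = 4) in fused myotubes, while the 277-codon Trdn-208 went from 13.9% ± 1.65 to 9.34% ± 0.314 and 3.76% ± 0.362. KO-labelled means of Trdn-201 were 55.7%, 55.2% and 70.4%. Dysf-202 took 3.88% ± 6.71 of Dysf counts in WT myoblasts, 52.2% ± 1.1 in differentiated and 50.2% ± 5.28 in fused myotubes.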
